A study of Mus musculus with 18 samples.

Results

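The genes described here are 10 components of the Hippo pathway and its nuclear output, chosen by name: the coactivators Yap1 and Wwtr1 (which encodes TAZ), the DNA-binding factors Tead1, Tead2, Tead3 and Tead4, the kinases Lats1 and Lats2, and the upstream regulators Amot and Nf2. All 10 were measured, out of 30176 genes, and 8 of them lay above the background of the arrays, as did 12971 of all genes. The samples were 18 single blastomeres, taken as 9 sister pairs from parthenogenetic 2-cell mouse embryos (embryos 1 to 5 and 7 to 10, sisters a and b), with 1 Affymetrix Mouse Transcriptome Array 1.0 for each blastomere. Metaphase II oocytes from B6C3F1 females, an F1 hybrid of laboratory mouse strains, were activated for 6 h with 10 mM SrCl2 together with latrunculin. Strontium starts development without a sperm, and latrunculin, an actin inhibitor, stops the extrusion of the polar body. The embryos were cultured in KSOM(aa) medium to the 2-cell stage (Theiler stage 2, day 1 after activation, 20 h of culture), bisected, and lysed at once with their pair associations on record. All samples shared this treatment. No fertilized embryo, intact embryo or oocyte was analysed here, so the comparisons were those between sisters, between non-sisters and between embryos.

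In the Hippo pathway, a kinase cascade ends in Lats1 and Lats2, which phosphorylate the coactivators YAP and TAZ and so keep them in the cytoplasm. Where the cascade is off, YAP and TAZ enter the nucleus and bind Tead factors, which carry the DNA-binding domain that the coactivators lack. In the mouse preimplantation embryo this switch separates outer cells, in which Tead4 with nuclear YAP drives trophectoderm genes such as Cdx2, from inner cells, in which Amot and Nf2 promote Lats activity. The pathway acts largely through phosphorylation and the place of proteins in the cell, which an mRNA array does not measure.

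Values were log2 signals, normalized between arrays by the authors, so that a difference of 1 log2 unit is 2-fold and unequal total RNA in sisters would not show. The brightest probe set of each gene was used. Levels are compared between blastomeres within a gene and not between genes. Background was set at 5.79, which the mean of a gene over 18 blastomeres had to exceed. This value is the 95th percentile of that mean over 1586 genes that these cells should not express, namely 1579 chemosensory receptor genes and 7 Y-linked genes. The Y-linked gene Sry nevertheless read 7.82 ± 0.22 (SD, n = 18), so a mean above 5.79 is not in itself proof of a transcript. Of the 8 Hippo genes above background, only Yap1 and Nf2 had means above that of Sry. Markers of oocytes and 2-cell embryos were above background in 11 of 11 cases, with a summed level between 18.44 and 19.40 log2 units. Of the cumulus and granulosa cell markers, 1 of 9 measured was above it (Has2, at 6.43), with a summed level of 8.05 to 8.73. Of the blood and oviduct markers, 2 of 4 were (Wfdc2 and Epcam), with a summed level of 8.37 to 10.01. Array medians lay between 4.86 and 5.26. Genes spread most widely around their medians over all arrays on the arrays of 5b, 1a and 7b (interquartile ranges of 0.835, 0.815 and 0.785 log2 units, against 0.545 to 0.723 in the other 15). The labels name no batch. Sisters are the only replicates of an embryo, and each blastomere was amplified by itself, so the difference between sisters holds the technical error of 2 arrays as well.

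Both coactivators were measured above background, Yap1 in each of the 18 blastomeres and Wwtr1 in 7 of them. Yap1 (probe set TC0900001724.mm.1, chromosome 9) had a signal of 9.04 ± 0.72 log2 units (SD, n = 18), with a lowest value of 7.63, a median of 9.28 and a highest value of 10.03. Sisters a and b read 7.76 and 9.51 in embryo 1, 9.52 and 7.63 in embryo 5, and 10.03 and 7.86 in embryo 7, differences of 3.36-fold, 3.71-fold and 4.50-fold. These were the 3 pairs over 2-fold for Yap1, and the lower sister of each (1a, 5b and 7b) was among the 3 lowest Yap1 readings of all. In the other 6 pairs the sisters lay closer: 8.78 and 8.94 in embryo 2, 9.01 and 8.26 in embryo 3, 9.37 and 9.03 in embryo 4, 9.27 and 9.41 in embryo 8, 9.87 and 9.39 in embryo 9, and 9.28 and 9.78 in embryo 10. The mean difference between sisters was 0.91 ± 0.80 log2 units (SD, n = 9 pairs), an interblastomere ratio (the geometric mean of the higher over the lower value) of 1.88, against 1.75 between the 144 non-sister combinations of blastomeres from different embryos. The exact permutation test over all 34459425 divisions of the 18 blastomeres into pairs gave p = 0.623 for Yap1 (two-sided, adjusted p = 0.879 over all genes above background).

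Blastomeres 1a, 5b and 7b are also those on the 3 arrays with the widest spread. Without embryos 1, 5 and 7, a choice made after the values were seen, the Yap1 ratio was 1.31 between sisters and 1.42 between non-sisters. With the 3 pairs over 2-fold removed, the count of 0 of 6 pairs over 2-fold and the lower sister ratio followed from the choice. Without embryos 1 and 5 the ratio was 1.57 between sisters and 1.60 between non-sisters. Sisters were thus farther apart than non-sisters for Yap1 with all embryos, and closer without these embryos. Because the same embryos held the wide-spread arrays and the widest Yap1 pairs, leaving them out cannot tell the 2 apart. The part of array spread in the Yap1 differences was not tested.

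**Figure D1:**
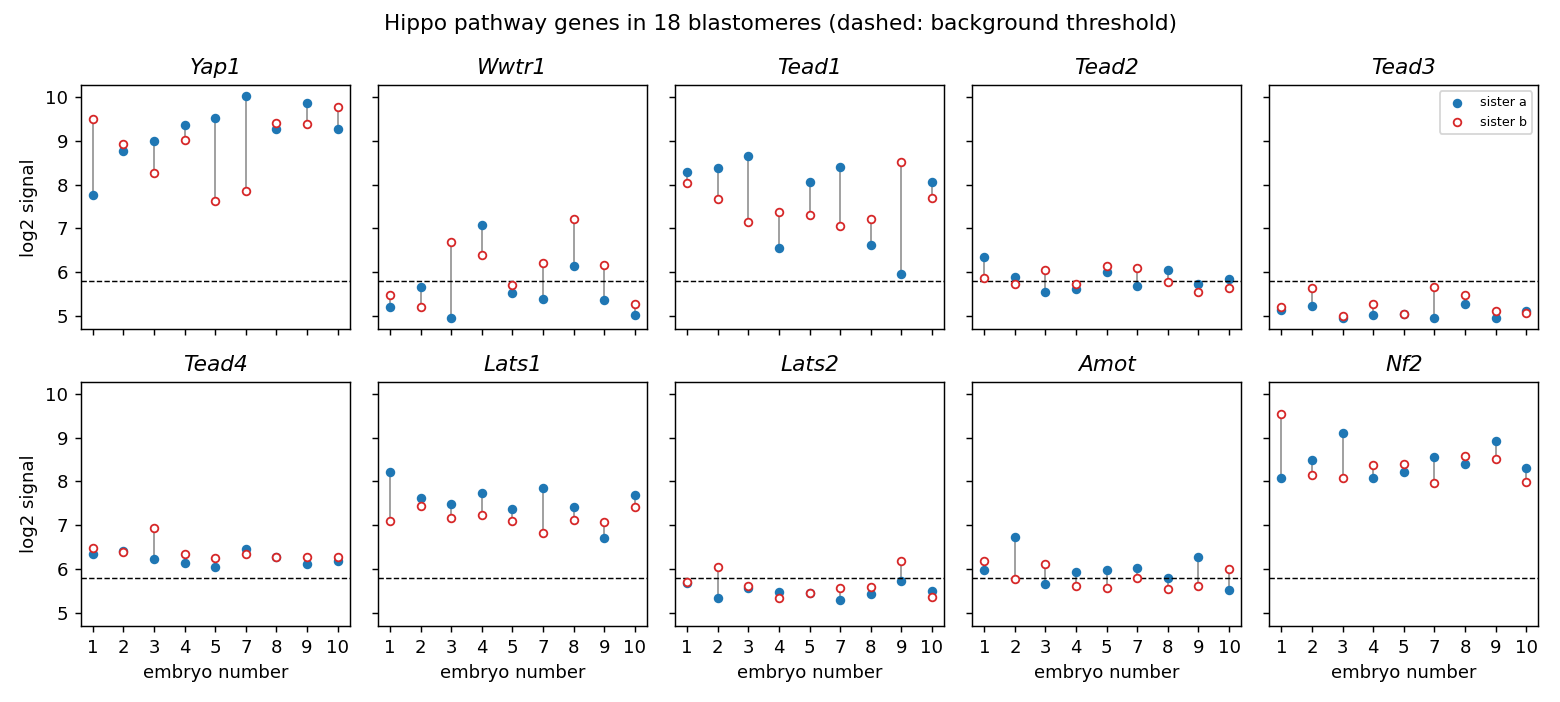
Log2 signal (vertical axis, the same in every panel) of each of the 10 genes in sisters a (filled) and b (open) of 9 embryos (horizontal axis), with a line joining sisters and a dashed line at the background threshold of 5.79. Sisters stand wide apart for Yap1 in embryos 1, 5 and 7 and for Tead1 in embryos 3, 7 and 9, and almost coincide for Tead4 outside embryo 3.

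Wwtr1 (TC0300002025.mm.1, chromosome 3), whose protein TAZ is the paralogue of YAP, had a mean of 5.81 ± 0.69, just over the threshold, with a lowest value of 4.95, a median of 5.59 and a highest value of 7.21. Both sisters were above 5.79 in embryo 4 (7.08 and 6.38) and embryo 8 (6.14 and 7.21). In embryos 3, 7 and 9 only sister b was, at 6.68, 6.20 and 6.16, against 4.95, 5.38 and 5.37 in sister a. The blastomeres of embryos 1, 2, 5 and 10 read between 5.01 and 5.71. Embryos 3, 7 and 9 thus held a sister on each side of the threshold, and 4 embryos held none above it. Embryo means ran from 5.14 in embryo 10 to 6.73 in embryo 4, the widest range of embryo means among the 8 genes above background. Embryos 4 and 8 (6.675) brought the mean of Wwtr1 over the threshold. The width of this range, the limma rank and the choice for similar profiles are therefore not independent of that threshold. The limma test of a difference between embryos gave an adjusted p of 0.322 for Wwtr1 in limma, the lowest of these genes, which did not pass. Sisters differed by 0.70 ± 0.49 log2 units, a ratio of 1.62 against 1.73 between non-sisters (exact permutation p = 0.571, adjusted p = 0.854). The widest pair was embryo 3, at 1.73 log2 units. Its lower sister was below background, as were 11 of the 18 Wwtr1 values, so the Wwtr1 ratios hold values that are not above background.

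Of the 4 Tead genes, Tead1 and Tead4 were above background in all 18 blastomeres, Tead2 in 9 and Tead3 in 0. Tead1 (TC0700001651.mm.1, chromosome 7) had the highest interblastomere ratio of the 8 genes above background when all embryos were counted. Its signal was 7.62 ± 0.76, with a lowest value of 5.95 in blastomere 9a, a median of 7.69 and a highest value of 8.66 in 3a. The sisters read 5.95 and 8.53 in embryo 9, a difference of 5.98-fold, 8.66 and 7.15 in embryo 3, and 8.41 and 7.06 in embryo 7, and these 3 pairs were over 2-fold. In the other 6 pairs sisters differed by 0.25 to 0.83 log2 units, with 8.30 and 8.05 in embryo 1 as the closest pair. The lowest and the second highest Tead1 readings of the series were therefore sisters. The ratio was 1.99 between sisters and 1.84 between non-sisters, with a mean difference of 0.99 ± 0.72 between sisters. The exact permutation test gave p = 0.560 (adjusted p = 0.849). Embryo means overlapped widely, from 6.92 in embryo 8 to 8.18 in embryo 1 (limma adjusted p = 0.816). Blastomere 9a, the lowest for Tead1, was on an array whose spread (0.625) was within the range of the other 15. Without embryos 1, 5 and 7 the Tead1 ratio was 2.14 between sisters and 1.99 between non-sisters. Without embryo 9 it was 1.74 between sisters and 1.69 between non-sisters, below the Yap1 ratio of 1.95 in the same 8 pairs, so the first rank of Tead1 rested on embryo 9.

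Tead4 (TC0600003196.mm.1, chromosome 6), the Tead gene required for trophectoderm in the mouse, was the most even of the set. It read 6.32 ± 0.19, from 6.05 in 5a to 6.93 in 3b with a median of 6.28. Sisters differed by 0.18 ± 0.21 log2 units, a ratio of 1.13 against 1.15 between non-sisters (exact permutation p = 0.631, adjusted p = 0.883). The sisters of embryo 8 gave the same value, and 8 of 9 pairs differed by at most 0.21. Only in embryo 3 was there a wider gap, 0.71 log2 units or 1.64-fold, with 3b the higher. Of all genes above background, 3.28% had a smaller sister ratio than Tead4. Its signal lay near the threshold in every blastomere, and signals near the background of an array are compressed, so small ratios there do not show that transcript amounts were equal.

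Tead2 (TC0700000835.mm.1, chromosome 7), a Tead gene known from cleavage-stage mouse embryos, was at the threshold: 5.85 ± 0.22, from 5.54 to 6.35. No pair was over 2-fold, and the ratio was 1.21 between sisters and 1.20 between non-sisters (exact permutation p = 0.755, adjusted p = 0.934). Tead3 (TC1700001755.mm.1, chromosome 17) was below the threshold in each blastomere, at 5.17 ± 0.22 with values from 4.94 to 5.65. The Tead factors measured in these blastomeres thus split into Tead1, up to 5.98-fold apart between sisters, and Tead2 and Tead4, at most 1.64-fold apart but near the threshold.

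**Figure D2:**
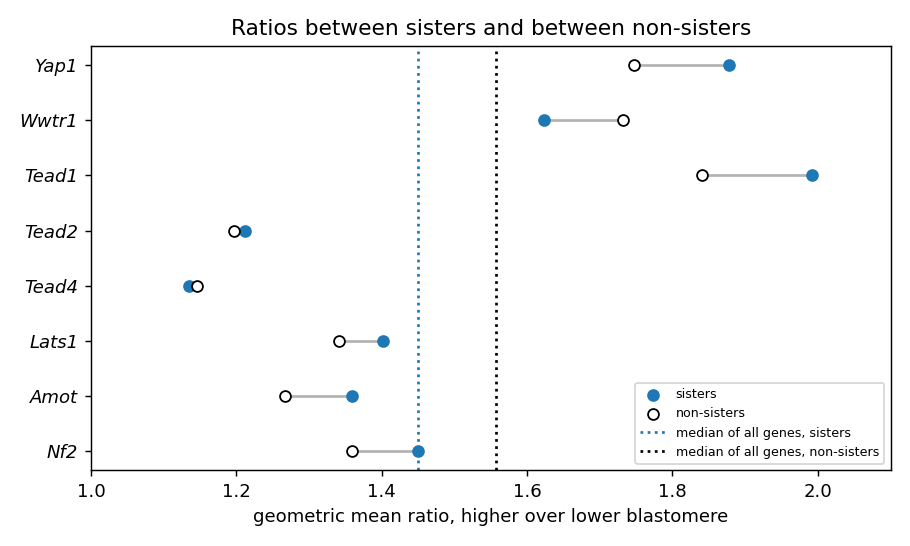
Interblastomere ratio (horizontal axis, geometric mean of higher over lower, no unit) of the 8 genes above background between sisters (filled, 9 pairs) and between non-sisters (open, 144 combinations), with dotted lines at the medians over 12971 genes. Yap1, Wwtr1 and Tead1 lie to the right of both medians, Tead2 and Tead4 near 1, and Wwtr1 and Tead4 have sisters closer than non-sisters, which for Tead4 turned after quantile normalization.

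Of the kinases that phosphorylate YAP and TAZ, Lats1 was above background in all blastomeres and Lats2 was not above it on average. Lats1 (TC1000000048.mm.1, chromosome 10) read 7.37 ± 0.37, from 6.71 in 9a to 8.21 in 1a with a median of 7.40. The pairs over 2-fold were embryo 1, with 8.21 and 7.09, and embryo 7, with 7.84 and 6.83. Sister a was the higher in 8 of 9 pairs, the exception being embryo 9, with 6.71 and 7.08. Sister b was lower than sister a by a mean of 0.41 log2 units, which did not pass limma's test with the embryo as a block after adjustment over all genes (limma adjusted p = 0.980), and the labels attach no meaning to the letters. The ratio was 1.40 between sisters and 1.34 between non-sisters (exact permutation p = 0.463, adjusted p = 0.798). Both wide pairs of Lats1 included a wide-spread array, 1a or 7b. Without embryos 1, 5 and 7 its ratio was 1.26 between sisters and 1.27 between non-sisters, with 0 of 6 pairs over 2-fold. This choice removed both wide pairs, so that count and the lower sister ratio followed from it. The part of array spread was not tested. Lats2 (TC1400002868.mm.1, chromosome 14), which is also a target of YAP, read 5.57 ± 0.24, and only blastomeres 2b (6.04) and 9b (6.17) were above 5.79, in each case without their sister.

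The upstream regulators differed in level against the threshold. Nf2 (TC1100002121.mm.1, chromosome 11), which encodes Merlin, a protein of the cell cortex that recruits Lats kinases, was above background in all 18 blastomeres. It read 8.43 ± 0.41, with a lowest value of 7.97, a median of 8.39 and a highest value of 9.54. The sisters read 8.07 and 9.54 in embryo 1, 2.77-fold apart, and 9.10 and 8.09 in embryo 3. These were the only Nf2 pairs over 2-fold, and the higher sister of each held one of the 2 highest Nf2 readings. The ratio was 1.45 between sisters and 1.36 between non-sisters (exact permutation p = 0.236, adjusted p = 0.646). The pair of embryo 1 included the wide-spread array of 1a. Without embryos 1, 5 and 7 the Nf2 ratio was 1.35 between sisters and 1.31 between non-sisters, with 1 of 6 pairs over 2-fold. The part of array spread was not tested.

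Amot (TC0X00003133.mm.1, chromosome X), which encodes angiomotin, a junction and actin-binding protein that holds YAP out of the nucleus in inner cells of the mouse embryo, was near the threshold. Its signal was 5.89 ± 0.31, from 5.52 in 10a to 6.74 in 2a, with 11 of 18 blastomeres above 5.79. A second Amot probe set had a mean of 5.56, and with the mean over both sets Amot fell below background. Sisters were 1.36-fold apart and non-sisters 1.27-fold, so that the mean difference between sisters was 129.8% of that between non-sisters, the highest of the 8 genes, and no pair was over 2-fold. Amot had the lowest exact permutation p of the set, 0.101 (adjusted p = 0.481). After quantile normalization or median centring of the arrays the sisters of every pair lay on opposite sides of the median, and the exact p was 0.0211. This is the smallest p the test can give for sisters farther apart than non-sisters, so the adjusted p-values of 0.262 and 0.252 say little in that direction. On the signals without this rescaling, where the exact permutation p was 0.101, the same test on squared differences gave an exact p of 0.380.

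Across the set, 0 of 8 genes above background differed between embryos in limma after adjustment, and 0 did at an unadjusted p under 0.05, where 5.76% of all 12971 genes were called after adjustment (747 genes) and 2920 were at an unadjusted p under 0.05. A plain analysis of variance also gave 0 of 8 at an unadjusted p under 0.05. In the exact permutation test 0 of 8 had sisters closer than non-sisters, adjusted or unadjusted, against 0.925% of all genes (120 genes) after adjustment and 12.9% unadjusted. Sisters were the farther apart for Yap1, Tead1, Tead2, Lats1, Amot and Nf2. In that direction the test called 0 of all genes after adjustment, where its smallest possible p leaves little room for a call. The adjusted p-values of these genes in this test therefore say little. With shares of 5.76% and 0.925% after adjustment, counts of 0 among 8 genes are near what all genes give. The unadjusted shares were larger, but with only 8 genes nothing particular to the set can be read from any of these counts. The spread between sisters also did not exceed limma's prior for genes of like signal in any of the 8 genes at an unadjusted p under 0.05, against 4.18% of all genes, and after adjustment this test called 0 of all genes. For Yap1 the standard deviation between sisters was 0.83 log2 units against a prior of 0.53, a comparison with only 3.29 degrees of freedom on the side of the prior.

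The median interblastomere ratio of the 8 genes was 1.43 between sisters and 1.35 between non-sisters, beside 1.45 and 1.56 for the median of all genes above background. The mean difference between sisters was a median of 113% of that between non-sisters in the set and 88.2% over all genes. Sisters were closer than non-sisters for 2 of the 8 genes, Wwtr1 and Tead4. For Tead2 and Tead4 this direction moved with the scaling: Tead2 sisters were the closer after quantile normalization (0.24 against 0.26 log2 units) and median centring (0.23 against 0.25), and Tead4 sisters were the farther apart after quantile normalization (0.21 against 0.20). Over all 72 combinations of a gene and a pair, 12 (16.7%) were over 2-fold, against 18.8% over all genes above background. In 1 of the 12, Wwtr1 in embryo 3, the lower sister was below the threshold. These 12 lay in 6 of the 9 embryos, with 3 each in embryo 1 (Yap1, Lats1 and Nf2), embryo 3 (Wwtr1, Tead1 and Nf2) and embryo 7 (Yap1, Tead1 and Lats1), and 1 each in embryo 5 (Yap1), embryo 8 (Wwtr1) and embryo 9 (Tead1).

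Of these genes over 2-fold, the higher sister was not the same for all in embryos 1 and 3 and was the same in embryo 7. In embryo 1, sister b was higher for Yap1 and Nf2 and sister a for Lats1. In embryo 3, sister a was higher for Tead1 and Nf2 and sister b for Wwtr1. In embryo 7, sister a was higher for Yap1, Tead1 and Lats1. The median difference over the 8 genes was 0.73 log2 units in embryo 3 and 0.70 in embryo 7, against 0.40 and 0.47 over all genes, and 0.24 in embryo 5, against 0.49. Embryos 1, 5 and 7 were the pairs in which most genes overall were over 2-fold apart (25.6%, 23.4% and 21.2%), while embryo 3 was not (16.1%). No test was made of a single pair.

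**Figure D3:**
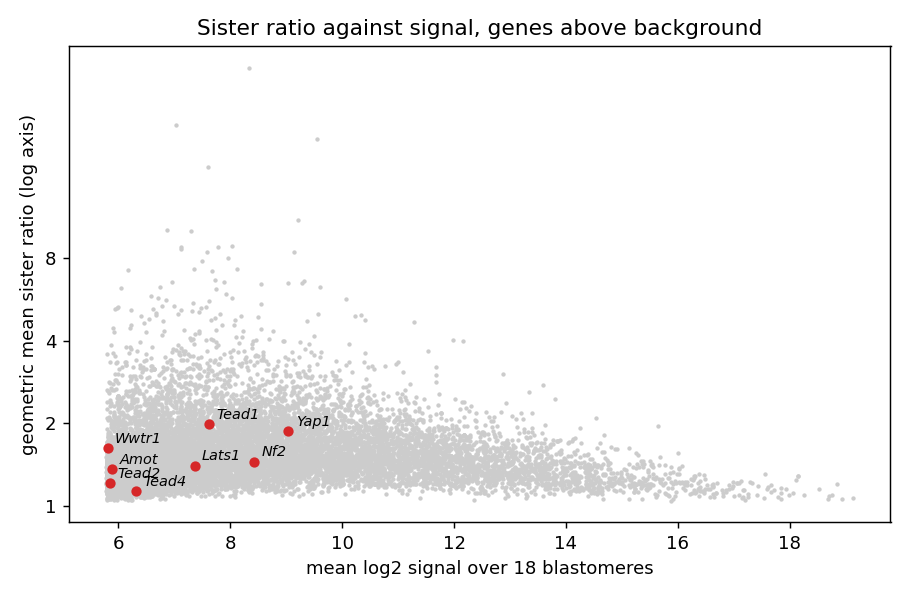
Interblastomere ratio between sisters (vertical log axis, no unit) against mean log2 signal over 18 blastomeres (horizontal axis) for 12971 genes above background (grey), with the 8 pathway genes in red. All 8 lie within the grey cloud, with Yap1 and Tead1 in its upper part and Tead4 at its lower edge.

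By a fixed rule, the genes with the most similar profile over the 18 blastomeres were found for the pair of genes with the widest range of embryo means. For Wwtr1 these were Slc39a2, a zinc transporter (Pearson r = 0.78, Spearman coefficient 0.68), Cstf2t, a polyadenylation factor (0.77 and 0.73), and 3300002I08Rik (0.71 and 0.62). For Tead1 they were Phb2, a mitochondrial prohibitin (Pearson r = 0.74, Spearman coefficient 0.72), Fbxw5, an F-box protein (0.68 and 0.71), and Rfk, riboflavin kinase (0.68 and 0.69). These are the highest coefficients among all genes above background, over 18 arrays that share sisters and normalization, and are given as a description.

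In the wider pathway, lists that included core kinases, membrane and junction regulators, coactivator partners, 14-3-3 proteins, YAP and Tead targets and trophectoderm targets held 73 further measured genes, 50 of them above background. Limma called 2 of these 50 as different between embryos after adjustment, beside the 5.76% of all genes. At an unadjusted p under 0.05 limma gave 7, beside 2920 of all 12971 genes. The exact permutation test called 0 after adjustment and 5 unadjusted, beside 0.925% and 12.9% of all genes. Their median ratio was 1.35 between sisters and 1.40 between non-sisters. Counts for single lists, which also include the genes of the set that a list holds, stand beside the same shares over all genes. Both called genes encode LIM-domain proteins of the Ajuba family, which bind Lats kinases and restrain them at junctions.

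Limd1 (TC0900001665.mm.1) read 5.60 and 5.65 in the sisters of embryo 5, 6.88 and 6.33 in embryo 7, 6.75 and 7.85 in embryo 10, 7.54 and 7.32 in embryo 1, and 7.83 and 8.19 in embryo 2. In embryos 3, 4, 8 and 9 the sisters read 8.13 and 7.61, 8.89 and 8.18, 8.59 and 9.41, and 8.57 and 8.15. Both sisters of embryo 5 were thus below the threshold and below every other blastomere, and both sisters of embryo 8 were among the highest. Sisters were 1.44-fold apart and non-sisters 2.38-fold (exact permutation p = 0.00312, adjusted p = 0.133), and embryo means ran from 5.63 to 9.00 (limma adjusted p = 0.0117). Without embryo 5 the limma adjusted p was 0.0861, so the call rested on that embryo, whose sister 5b was on the array with the widest spread and 5a was not. The part of array spread was not tested.

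Ajuba (TC1400002059.mm.1), which is also listed as a YAP target, read 8.79 and 9.91 in the sisters of embryo 7 and between 5.33 and 7.20 in the other 16 blastomeres. Both sisters of embryo 7 were above every other blastomere, and 12 of 18 were above the threshold. The arrays of 7b and 7a were among the 4 with the widest spread (0.785 and 0.723), and the part of array spread was not tested. The mean of embryo 7 was 9.35, that of embryo 3, the next, 6.64, and that of embryo 10, the lowest, 5.64 (limma adjusted p = 0.0247). The call rested on embryo 7: without it the limma adjusted p was 0.744, and without blastomere 7a or 7b alone it was 0.0527 or 0.155. It was also lost with no background threshold (0.0514) and in a plain analysis of variance (limma was then not used, adjusted p = 0.0852). Sisters were 1.71-fold apart and non-sisters 2.33-fold (exact permutation p = 0.0873, adjusted p = 0.455). The number of pairs over 2-fold was 4, that of embryo 7 among them.

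**Figure D4:**
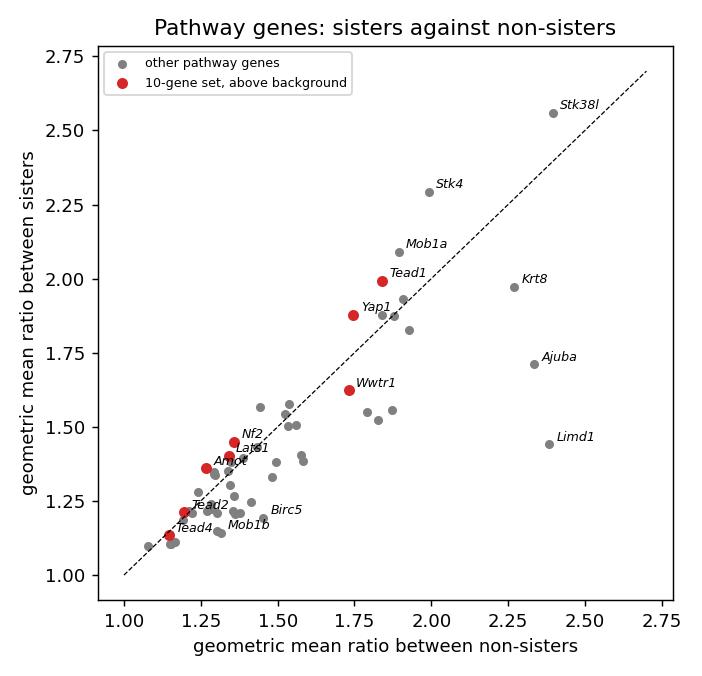
Interblastomere ratio between sisters (vertical axis, no unit) against that between non-sisters (horizontal axis) for the 8 genes of the set (red) and 50 other pathway genes above background (grey), with a dashed line of equality. Limd1 and Ajuba lie farthest below the line, at 1.44 against 2.38 and 1.71 against 2.33, while Yap1 and Tead1 lie above it.

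The core kinase list, with the Mst, Lats and Ndr kinases and their Mob and Sav1 partners, held the widest sister ratio of any list. Of its 10 genes above background, Lats1 among them, limma called 0 (1 unadjusted). Stk38l, a kinase of the Ndr family, was 2.56-fold apart between sisters and 2.40-fold between non-sisters, and over 2-fold in 6 of 9 pairs. Stk4, which encodes Mst1, and Mob1a, a cofactor of Lats, were singled out after their values were seen, with 5 of 9 pairs over 2-fold each. Stk4 had a ratio of 2.29 between sisters and 1.99 between non-sisters (exact permutation p = 0.285). For Mob1a the ratios were 2.09 and 1.89 (exact permutation p = 0.431). Mob1b, the paralogue of Mob1a, had the smallest ratio, 1.14 against 1.31 between non-sisters, with 0 pairs over 2-fold (exact permutation p = 0.0121, adjusted p = 0.212). The Mob1 paralogues thus gave a wide and a narrow ratio between sisters in the same blastomeres, and likewise between non-sisters. Their difference was not tested.

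Of 12 membrane and junction regulators above background, Nf2 and Amot among them, limma called Limd1 and Ajuba. The smallest sister ratio was that of Wwc1, which encodes the scaffold Kibra (1.22, against 1.36 between non-sisters). The largest was that of Prkci, an atypical protein kinase C of the apical domain (1.93, against 1.91 between non-sisters). Both were named after their values were seen. The 7 14-3-3 genes, whose proteins hold phosphorylated YAP in the cytoplasm, had a median ratio of 1.22 between sisters and 1.36 between non-sisters, from 1.11 for Ywhae to 1.83 for Sfn, and limma called 0 (0 unadjusted).

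The YAP and Tead target list was mostly below background: 3 of 13 measured genes were above it, and the classic targets Ccn1, Ccn2, Ankrd1 and Axl were not. Besides Ajuba, called by limma, these were Tgfb2 and Birc5, both named after their values were seen. Birc5, which encodes survivin, had a ratio of 1.19 between sisters and 1.45 between non-sisters (exact permutation p = 0.00666, adjusted p = 0.168). Of 10 trophectoderm targets measured, 7 were above background and limma called 0 (2 unadjusted). All 7 had means under that of Sry (7.82), from 5.98 for Gata2 to 7.02 for Fgfr2. Small ratios near the threshold do not show that transcript amounts were equal. Gata2 had the smallest ratio (1.10) and Krt8, a keratin of the trophectoderm, the largest (1.97 between sisters and 2.27 between non-sisters, limma adjusted p = 0.215). The mean of Krt8, like that of Ajuba, was highest in embryo 7 (8.27) and lowest in embryo 10 (5.28, below the threshold). This match was seen after the values were known and was not tested, and embryo 7 included the wide-spread array of 7b. Eomes was also highest in embryo 7, while Cdx2, Gata2, Tfap2c, Tfap2a and Fgfr2 were highest in other embryos.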

How the data were processed

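RNA of each blastomere was labelled with the WT Pico kit, per the labels, and the authors made log2 signals in Affymetrix Expression Console with SST-RMA, a robust multiarray average that corrects background, equalizes arrays and summarizes probe sets. The deposited table held 65956 probe sets from 2.14 to 19.41 in log2 units. Their genome build is not given in the sources used. Chromosomes are those of the RefSeq gene table (GRCm38.p6). Depth has no meaning for an array, and the number of arrays limits the precision.

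Platform annotation gave 30638 probe sets 1 gene symbol, 2176 several and 33142 none. Only the first were used. For 354 genes with several probe sets the brightest was kept. Embryos were compared by a moderated F test of the embryo factor with an intensity trend (R 4.3.3, limma 3.58.1), with p-values adjusted after Benjamini and Hochberg over 12971 genes and called at 0.05. Sisters were compared with non-sisters by the exact pairing test (two-sided, smaller tail doubled, smallest possible p 5.8e-08 for sisters closer and 0.0211 for sisters farther apart) on the mean absolute log2 difference. The sister variance was compared with limma's prior by an F test. The exact test ran in numba 0.67.0 and numpy 2.4.6 under Python 3.11.15, and the tests were tested on simulated data. Each of these tests rests on the spread between sisters, which includes technical error, and sets it against embryos, other pairings or other genes.

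The genes and lists were chosen with earlier results of these data known. Named were the 10 genes, and from each wider list every gene called by limma or the variance test, or otherwise the genes with the largest and smallest sister ratio. Further genes, such as Stk4, Mob1a, Wwc1, Prkci, Tgfb2 and Birc5, were named outside this rule, after their values were seen. One of the wider lists is counted in the totals and not reported here by itself. Similar profiles were sought for the 2 genes above background with the widest range of embryo means, as the 3 highest Pearson r. Alternatives were quantile normalization, median centring, no threshold or the 99th percentile, the mean over probe sets, no intensity trend, a plain analysis of variance, a letter block, and leaving out embryos or blastomeres.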

Additional observations from a re-analysis of the deposited data

Results flagged for a closer look

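The Tead4 difference between the sisters of embryo 3, 0.71 log2 units, stood apart from those of the other 8 pairs, the highest of which was 0.21. The gap was 0.704 of the whole range, above Dixon's 95% critical value for 9 values. It was the only such value among 16 groups of 9 values examined (the sister differences and the embryo means of 8 genes). For normally distributed values chance gives about 1 in 20 groups. Absolute differences are bounded at 0, so that rate may not hold for the sister differences.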

How the results depend on the processing

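The counts of 0 of the 8 genes in limma, in the exact test and in the variance test were also 0 under every alternative run, with limma's lowest adjusted p at 0.138 (Wwtr1). The limma count of membrane and junction regulators fell from 2 to 1 with no threshold, with the 99th percentile, in the plain analysis of variance and without embryos 1 and 5, and to 0 without embryos 1, 5 and 7 (chosen after seeing the data). It ranged from 1 to 2 when any embryo or blastomere was left out. The count of YAP and Tead targets fell from 1 to 0 with no threshold, with the 99th percentile, in the plain analysis of variance and without embryos 1, 5 and 7, and ranged from 0 to 1 when any embryo or blastomere was left out. The 99th percentile, 7.18 log2 units, left 4 of the 10 genes. Over all genes the limma count of 747 fell to 403 with no threshold, 353 in the plain analysis of variance, 412 without embryos 1, 5 and 7 and 422 without embryo 7. The exact test's count of 120 fell to 39 with no threshold, to between 27 and 61 without any 1 embryo, to 22 without embryos 1 and 5 and to 0 without embryos 1, 5 and 7, where fewer pairs raise the smallest possible p. The letters a and b name sisters within an embryo, and the labels attach no other meaning to them. Limma's test of b against a with the embryo as a block called 0 of all genes after adjustment. In the test between embryos, the letter as a replicate block left 0 of the 8 genes called. Signals near 5.79 limit Wwtr1, Tead2, Tead4 and Amot, and the means of Tead1 (7.62) and Lats1 (7.37) were also under that of Sry (7.82).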
